A study of Homo sapiens with 12 samples.

Results

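The genes described here are the classical SR proteins, the heterogeneous nuclear ribonucleoproteins (hnRNPs) and the CLK kinases, read in a human small cell lung cancer line after exposure to caffeic acid phenethyl ester (CAPE). They were taken by symbol: SRSF or HNRNP followed by the usual number or letters, and CLK1 to CLK4, with symbols ending in a pseudogene number left out. This gave 41 genes of 34886 listed symbols, namely 4 CLK kinases, 12 SR proteins and 25 hnRNPs, and left out 124 pseudogene symbols. The line was H446 (NCI-H446), kept in culture with serum. Cells of the CAPE group received 40 µM CAPE, a plant-derived phenolic ester found in propolis, for 8 h before RNA was taken, and cells of the DMSO group received an equal volume of the solvent. Each group had 3 mRNA libraries and 3 miRNA libraries, and the comparison asks what CAPE does to the transcripts of this splicing machinery and to the miRNAs tied to it.

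SR proteins bind short enhancer sequences in exons and recruit the spliceosome, while hnRNPs coat nascent transcripts and often oppose exon inclusion, so that the balance between them shapes alternative splicing. CLK kinases phosphorylate the arginine and serine repeats of SR proteins in the nucleus and release them from nuclear speckles. Many SR protein and hnRNP genes keep their own level in check by splicing in a poison exon or retaining an intron, which sends the transcript to nonsense-mediated decay or holds it in the nucleus.

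The mRNA libraries held 17569997 to 20917508 estimated counts and the miRNA libraries 4637576 to 8933025 counts. The third DMSO mRNA library, DMSO 3, stood apart. Its normalisation factor was 0.699 against 1.07 to 1.09 in the others, ribosomal protein genes took 8.41% of its counts against 3.396% to 3.787%, and its deviation from DMSO 1 and DMSO 2 fell with transcript length over 13442 genes (Spearman −0.47, a description). Over the 36 splicing genes tested the same Spearman value was −0.13. The counts of changed genes are therefore given with all 6 libraries and without DMSO 3, and fold changes are those without DMSO 3 unless the 6 libraries are named. YAP1, a marker of one small cell lung cancer state, had 70.5, 68.2 and 62.2 TPM (a level relative to transcript length and library total) in CAPE and 67.6, 73.6 and 14.3 TPM in DMSO libraries. The neuroendocrine genes NEUROD1, INSM1, SYP, CHGA and NCAM1 were each under 1 TPM in every library, so these markers of the labelled cancer type were at or near 0. Whether each library had a culture of its own is not stated in the labels, so the spread behind each p-value may be technical.

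Most of these splicing genes were modestly lower with CAPE once DMSO 3 was left out, and with it none passed in edgeR. Of the 41 genes 36 had enough counts to be tested. HNRNPCL1 to HNRNPCL4, copies of HNRNPC without introns, had no count in any library, and SRSF12 had 2 to 4 counts per library. Without DMSO 3, 27 of the 36 fell and 1, SRSF6, rose, by edgeR's quasi-likelihood test at an adjusted p under 0.05. The same call covered 20.8% of all 13919 genes for falls and 20.4% for rises, against 75% and 2.78% of these splicing genes. Their median log2 fold change was −0.23, with a range of −0.59 to 0.11, against 0.00 over all genes. With all 6 libraries, 0 of 36 passed in edgeR, beside 0.456% of 13595 genes lower and 1.49% higher, and the smallest adjusted p was 0.127, for SRSF2. At an unadjusted p under 0.05 that fit had 10 lower and 0 higher among them, beside 6.52% and 9.54% of all genes. On the same libraries DESeq2 called 4 splicing genes lower, beside 1.51% of 21660 genes. There limma voom with library quality weights called 25 lower, beside 19.7% of 13595 genes. The splicing genes' median over 6 libraries was −0.27 against −0.01 over all genes, and on TPM values it turned to 0.12 against 0.31 over all genes. All these values are relative to a library's normalised total, so they give a gene's share and not its amount per cell. In RNA from whole cultures, a fall in all cells and a fall in some cannot be told apart.

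**Figure D1:**
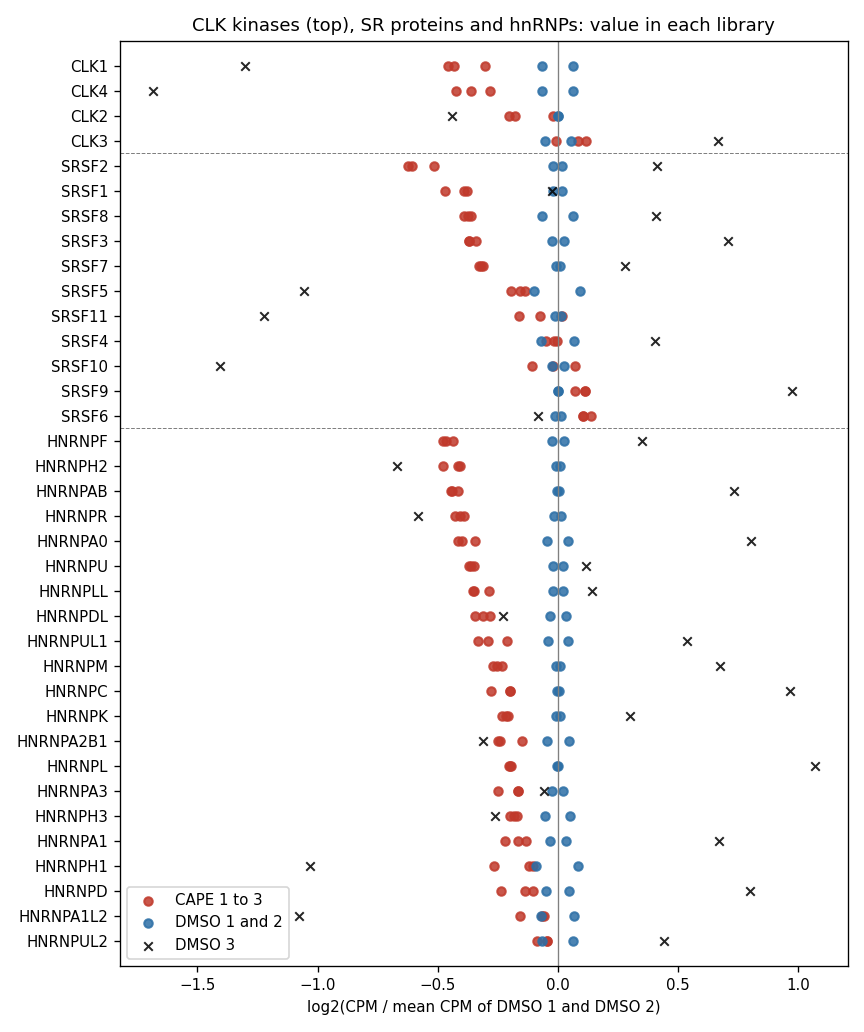
The level of each tested CLK kinase, SR protein and hnRNP in each library, as log2 of its CPM (counts scaled to the normalised library total) over the mean of DMSO 1 and DMSO 2, with CAPE libraries in red, DMSO 1 and 2 in blue and DMSO 3 as crosses. In 28 of 36 genes all CAPE points lie left of both blue points, and the crosses lie on either side of them, farthest left for CLK4 and farthest right for HNRNPL.

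In CPM, every CAPE library lay below DMSO 1 and DMSO 2 in 28 of the 36 genes, against 30.7% of all genes. CAPE lay above both in 2, SRSF6 and SRSF9, against 31.5%. Set against all 3 DMSO libraries, CAPE was lower throughout in 19 genes, against 20.6% of all genes. CAPE was higher throughout in 1, SRSF6, against 21.4%. These counts depend on the scale. On TPM, of the 19 only HNRNPA0, HNRNPAB, HNRNPC and HNRNPL stayed lower throughout, with DMSO 3 below at least 1 CAPE library in the others. SRSF6 overlapped with DMSO 1 and 2 on TPM. DMSO 3 was at least 2-fold below the other DMSO libraries in 7 of them (CLK1, CLK4, SRSF5, SRSF10, SRSF11, HNRNPH1 and HNRNPA1L2), against 21% of all genes, and at least 2-fold above in 1, HNRNPL, against 20.9%. These are abundant transcripts, and abundant genes fell more often as a whole. Among genes averaging at least 100 CPM without DMSO 3, 951 of 2387 fell (39.8%, median −0.08), and 23 of the 28 splicing genes at that level fell (82.1%, median −0.23).

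Among the CLK kinases, the closely related CLK1 and CLK4 had lower counts with CAPE, and CLK2 and CLK3 did not pass the test. CLK1 (chr2:200853009-200864658, GRCh38.p14) had 39.2, 43.6 and 39.8 CPM (counts scaled to the normalised library total) in CAPE libraries and 56.2, 51.3 and 21.8 CPM in DMSO libraries. The CAPE libraries lay below DMSO 1 and 2 and above DMSO 3, so the groups overlapped. Without DMSO 3 its log2 fold change was −0.40 (edgeR SE 0.069, adjusted p = 3.20e-04), and with it −0.08 (edgeR SE 0.35, adjusted p = 0.897). CLK4 (chr5:178602664-178627050) had 14.2, 14.99 and 13.6 CPM in CAPE and 19.1, 17.4 and 5.68 CPM in DMSO libraries, the same arrangement with DMSO 3 lowest. Its log2 fold change without DMSO 3 was −0.36 (edgeR SE 0.097, adjusted p = 0.00825), and 0.02 with 6 libraries.

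CLK2, whose product also phosphorylates SR proteins, had 63.5, 55.9 and 56.9 CPM in CAPE and 64.4, 64.4 and 47.4 CPM in DMSO libraries. CLK3 had 63.0, 59.2 and 64.6 CPM in CAPE and 61.7, 57.2 and 94.4 CPM in DMSO libraries. For CLK2 every CAPE library lay just under DMSO 1 and 2 and above DMSO 3, and for CLK3 the CAPE values lay among them with DMSO 3 highest. Without DMSO 3 their log2 fold changes were −0.14 (edgeR SE 0.065, adjusted p = 0.108) and 0.06 (edgeR SE 0.062, adjusted p = 0.445), and with 6 libraries 0.00 and −0.19.

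Among the 11 SR proteins tested, 6 fell without DMSO 3 (SRSF1, SRSF2, SRSF3, SRSF5, SRSF7 and SRSF8), SRSF6 rose, and SRSF4, SRSF9, SRSF10 and SRSF11 did not pass. SRSF2 (SC35, chr17:76734115-76737411), an enhancer-binding activator known for marking nuclear speckles, had the largest fold change of the 36 genes in size, with and without DMSO 3. It had 281, 261 and 264 CPM in CAPE and 407, 397 and 536 CPM in DMSO libraries. In CPM, all 3 CAPE libraries lay well below all 3 DMSO libraries. SRSF2's TPM in DMSO 3 was 229, below CAPE at 240 to 311. Its log2 fold change was −0.59 without DMSO 3 (edgeR SE 0.043, adjusted p = 5.89e-08), a level 33.4% lower, and −0.73 with 6 libraries (edgeR SE 0.18, adjusted p = 0.127). No other gene of the 36 passed 0.5 in size without DMSO 3.

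SRSF1 (chr17:57989038-58007246), the first SR protein described and a known oncoprotein, had 419, 443 and 447 CPM in CAPE and 574, 588 and 571 CPM in DMSO libraries. Here DMSO 3 lay beside the other DMSO libraries in CPM, and the groups did not overlap. On TPM DMSO 3 stood at 166, below CAPE at 303 to 314. The log2 fold change was −0.42 without DMSO 3 (edgeR SE 0.040, adjusted p = 1.16e-06) and −0.40 with 6 libraries (edgeR SE 0.14, adjusted p = 0.241). SRSF3 (chr6:36594362-36605600), which also takes part in mRNA export, had 289.7, 289.5 and 295 CPM in CAPE and 367, 380.3 and 611 CPM in DMSO libraries. Again no CAPE library reached a DMSO library in CPM, and DMSO 3 was far above the rest. Its TPM in DMSO 3 was 289, below 333 to 346 in CAPE. Its log2 fold change was −0.36 without DMSO 3 (edgeR SE 0.039, adjusted p = 3.21e-06), and −0.64 with 6 libraries (edgeR SE 0.24, adjusted p = 0.277).

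The other SR proteins that fell were SRSF8, a copy of SRSF2 (log2 fold change −0.38), SRSF7, an export adapter like SRSF3 (−0.32), and SRSF5 (−0.17, edgeR adjusted p = 0.0211). The fall of SRSF5 did not pass in limma voom with quality weights on 6 libraries (adjusted p = 0.0726). With 6 libraries SRSF8 was at −0.52 and SRSF7 at −0.42, and neither passed in edgeR. SRSF6 was the exception in direction, with 196, 192 and 192 CPM in CAPE and 177, 179.8 and 168 CPM in DMSO libraries. Its CAPE libraries all lay above its DMSO libraries in CPM. Without DMSO 3 the difference was 0.11 on the log2 scale, or 8.09% (edgeR SE 0.042, adjusted p = 0.0457). DESeq2 on the same 5 libraries gave SRSF6 an adjusted p of 0.1004, and on TPM its change was −0.04. With 6 libraries the direction of SRSF5, SRSF10 and SRSF11 turned positive (0.11, 0.32 and 0.23), and each of these had DMSO 3 at least 2-fold below the other DMSO libraries. SRSF9 turned the other way, at 0.09 without DMSO 3 and −0.30 with 6 libraries, and SRSF4 was at −0.03 and −0.17.

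Nearly all hnRNPs fell when DMSO 3 was left out. Of 21 tested 19 fell, none rose, and every fold change was below 0, with a median of −0.23 and a range of −0.46 to −0.06. HNRNPUL2 (−0.06) and HNRNPA1L2 (−0.10, and 0.18 with 6 libraries), a copy of HNRNPA1 with 2.81 to 6.21 CPM, did not pass. With 6 libraries 19 of 21 were below 0 and none passed in edgeR. Over all genes, 6911 of 13919 were below 0 without DMSO 3 and 6906 of 13595 with 6 libraries. HNRNPA1 (chr12:54280726-54287087), a general splicing repressor that binds silencers, had 1499.8, 1447 and 1538 CPM in CAPE and 1725, 1645 and 2679.8 CPM in DMSO libraries. HNRNPA2B1 (chr7:26189927-26200746) is a close relative of HNRNPA1 and a carrier of RNA in the cytoplasm. It had 1293, 1301 and 1387 CPM in CAPE and 1585, 1487 and 1238 CPM in DMSO libraries. HNRNPK (chr9:83968083-83980615), which binds runs of C, had 895, 910.2 and 905 CPM in CAPE and 1046, 1059 and 1296 CPM in DMSO libraries. In CPM, CAPE lay below every DMSO library for HNRNPA1 and HNRNPK, and below DMSO 1 and 2 but above DMSO 3 for HNRNPA2B1. On TPM DMSO 3 was below every CAPE library for each of these genes. Without DMSO 3 the log2 fold changes were −0.18 for HNRNPA1 (edgeR SE 0.050, adjusted p = 0.0106), −0.22 for HNRNPA2B1 (edgeR SE 0.051, adjusted p = 0.00369) and −0.22 for HNRNPK (edgeR SE 0.042, adjusted p = 6.47e-04). With 6 libraries they were −0.43, −0.11 and −0.33, with edgeR adjusted p values of 0.355, 0.687 and 0.347.

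Larger falls without DMSO 3 were in HNRNPF (−0.46) and HNRNPH2 (−0.44), which bind runs of G, HNRNPAB (−0.44), HNRNPR (−0.41), HNRNPA0 (−0.39) and HNRNPU (−0.36), a nuclear scaffold protein also called SAF-A. With 6 libraries these 6 were at −0.59, −0.24, −0.72, −0.24, −0.71 and −0.40, and none passed in edgeR. On the same libraries HNRNPF and HNRNPU passed in DESeq2 (adjusted p = 0.0249 and 0.0266), and all 6 passed in voom with quality weights. HNRNPH1 was at −0.17, turning to 0.11 with 6 libraries (edgeR adjusted p = 0.834), and HNRNPH3 at −0.19. The fall of HNRNPH1 did not pass in voom with quality weights (adjusted p = 0.0882). HNRNPC, which binds runs of U and holds new transcripts in the nucleus, was at −0.23, and HNRNPL, which binds CA repeats, at −0.20. HNRNPM was at −0.26, and HNRNPD, known as AUF1 for its part in the decay of AU-rich mRNAs, at −0.16. HNRNPLL (−0.33), HNRNPDL (−0.32), HNRNPUL1 (−0.28) and HNRNPA3 (−0.20) completed the 19 with those above.

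**Figure D2:**
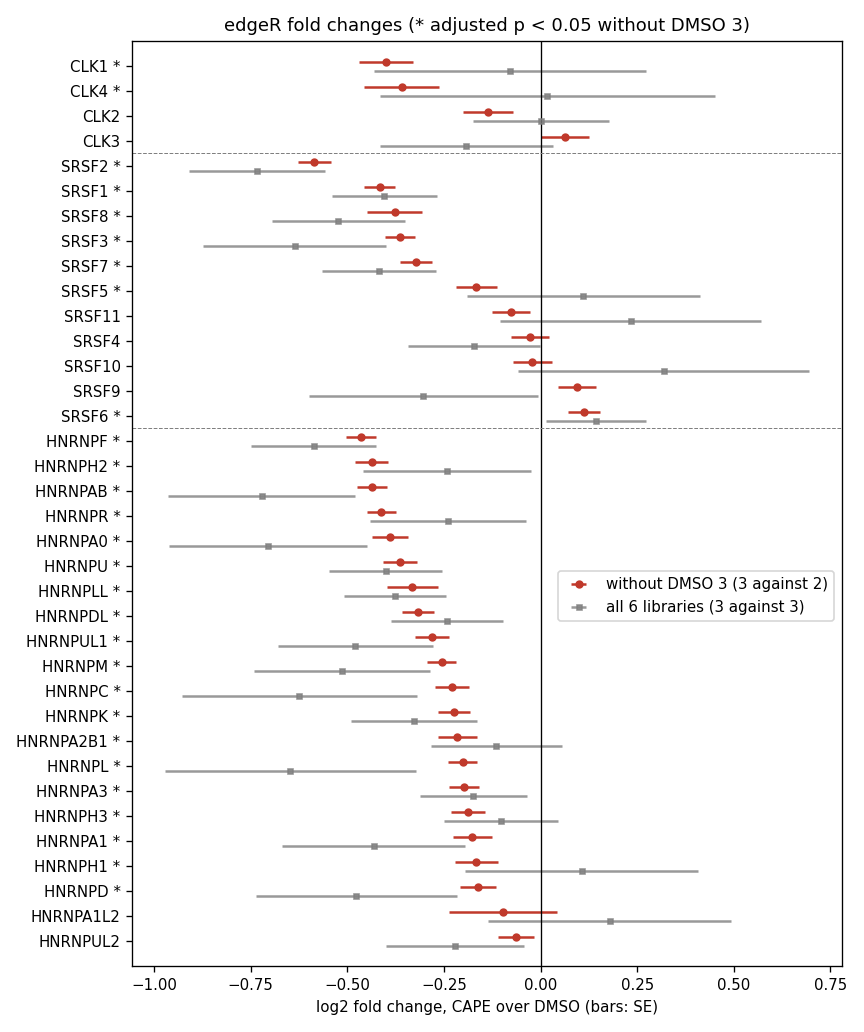
Log2 fold change of CAPE over DMSO for each tested gene by edgeR, with bars of 1 SE, without DMSO 3 in red (3 against 2 libraries) and with all 6 libraries in grey; a star marks an adjusted p under 0.05 without DMSO 3. The red points lie mostly between −0.46 and −0.16 with short bars, and the grey bars are longer for every gene.

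Counts and TPM differ for a gene when the mix of its long and short transcripts moves, and for CLK1 and CLK4 they gave different pictures. CLK1 had 50.1, 51.5 and 47.6 TPM in CAPE and 49.9, 49.2 and 10.8 TPM in DMSO libraries, and CLK4 had 15.1, 15.5 and 14.6 TPM in CAPE and 15.8, 16.5 and 1.83 TPM in DMSO libraries. On this scale the CAPE libraries lay beside DMSO 1 and 2, with DMSO 3 far below. Without DMSO 3, limma on log2(TPM + 1) gave CLK1 a log2 change of 0.00 (adjusted p = 0.969) and CLK4 −0.09 (adjusted p = 0.543). The ratio of a gene's count to its TPM follows the mean effective length of its transcripts. Relative to the median gene of its library, that ratio for CLK1 was 0.595, 0.650 and 0.642 in CAPE and 0.852, 0.789 and 0.691 in DMSO libraries. All CAPE values lay below all DMSO values, and the share of all genes with such a split in this ratio was not taken. The log2 change of the ratio was −0.30 (SE 0.089, limma adjusted p = 0.608) with 6 libraries and −0.38 (SE 0.059, limma adjusted p = 0.350) without DMSO 3, so it did not pass over all genes.

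For CLK4 the ratio changed by −0.34 with 6 libraries (limma adjusted p = 0.608) and by −0.24 without DMSO 3. With 6 libraries the next smallest p values were those of SRSF3 (−0.11) and HNRNPA1 (−0.10). Without DMSO 3 the order differed, with SRSF6 after CLK1 at a change of 0.17 (limma adjusted p = 0.370). With limma 0 of the 36 genes passed for this ratio in either fit, as did 0% of all genes. At an unadjusted p under 0.05 there were 3 of 36 with 6 libraries, beside 7.24% of all genes, and 5 without DMSO 3, beside 8.76%. Nothing is read from these shares. When the length was taken into account, 20 of the 27 falls remained without DMSO 3, and on TPM 19 remained. Of all genes 11.6% were lower with the length offset and 9.99% on TPM, against 20.8% without either. Calls were thus fewer over all genes too. The falls lost in both were those of CLK1, CLK4, HNRNPA1, HNRNPD, HNRNPH1, SRSF5 and SRSF8, and the rise of SRSF6 was lost as well. With the length offset CLK1 was at −0.01, CLK4 at −0.11 and HNRNPA1 at −0.08, smaller than before. HNRNPD (−0.21, edgeR adjusted p = 0.0531), HNRNPH1 (−0.21, edgeR adjusted p = 0.0503) and SRSF5 (−0.20) were no smaller than before, and SRSF8 was at −0.29. Both comparisons were added after the difference between counts and TPM had been seen in CLK1.

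**Figure D3:**
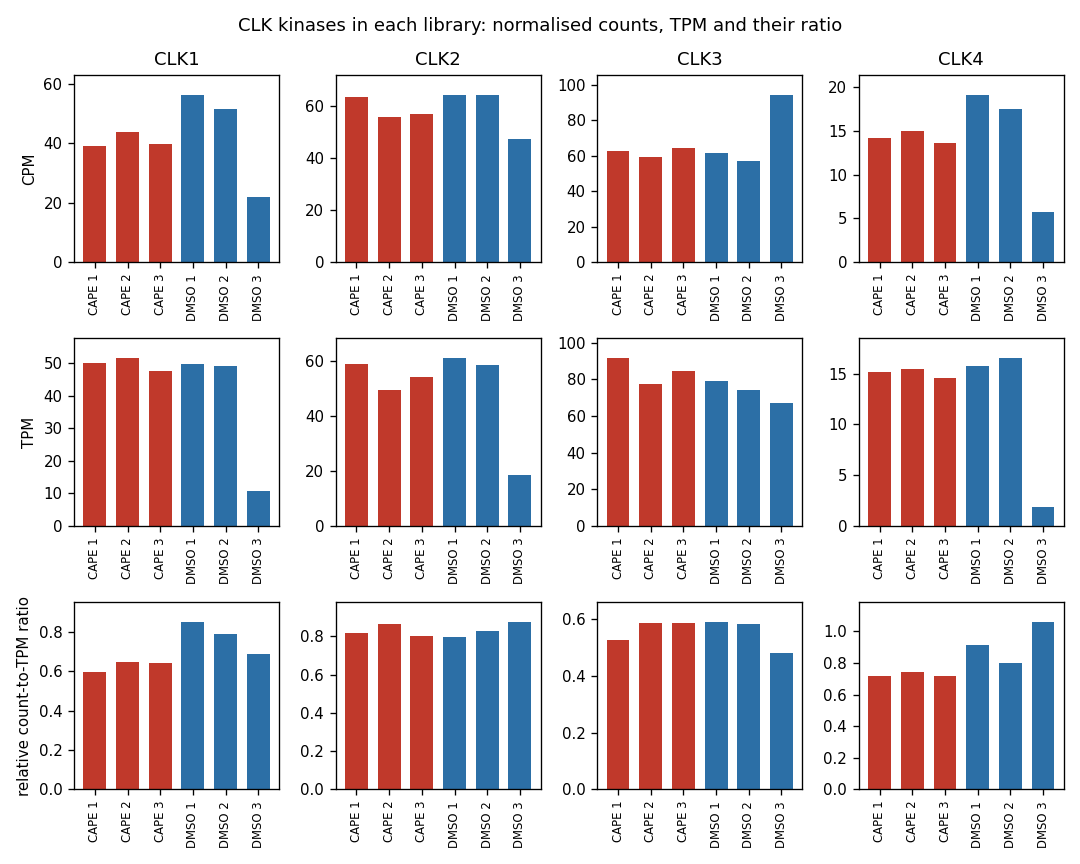
CPM, TPM and the ratio of count to TPM relative to the library's median gene (rows) for CLK1 to CLK4 (columns), 1 bar per library, CAPE in red and DMSO in blue. CLK1 has CAPE bars of 39.2 to 43.6 CPM below DMSO 1 and 2 at 56.2 and 51.3 CPM, while its TPM bars stand level at 47.6 to 51.5 apart from DMSO 3 at 10.8.

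Per length, hnRNPs were the most abundant of these transcripts. HNRNPA1 averaged 1948 ± 18.1 TPM in CAPE and 1838 ± 348 TPM in DMSO libraries (SD, n = 3 each), followed by HNRNPA2B1 at 1306 ± 43.6 TPM in CAPE and 1198 ± 526 TPM in DMSO, and by HNRNPC at 1081 ± 27.6 TPM in CAPE and 1196 ± 68.0 TPM in DMSO libraries. SRSF1 stood at 308 ± 5.71 TPM in CAPE and 331 ± 142 TPM in DMSO libraries, and CLK4 at 15.1 ± 0.454 TPM in CAPE and 11.4 ± 8.26 TPM in DMSO libraries. Without DMSO 3 the DMSO means were 2037 TPM for HNRNPA1 and 1501 TPM for HNRNPA2B1, above their CAPE means, and likewise 413 TPM for SRSF1 and 16.1 TPM for CLK4. The wide DMSO spread came with DMSO 3, whose sum over the 41 genes was 7884 TPM. The other sums were 12153, 12397 and 12347 TPM in CAPE libraries and 14392 and 13946 TPM in DMSO 1 and 2. CAPE thus lay between DMSO 3 and the other DMSO libraries (two-sided exact permutation test p = 1.0, smallest possible 0.1), at 0.868 of the mean of DMSO 1 and 2. The SR proteins summed to 0.857 and the hnRNPs to 0.868 of that mean, and the CLK kinases to 1.01. HNRNPA1 has many pseudogenes. Of its own and their counts together, theirs made up 0.779% to 0.903% in CAPE and 0.305% to 0.815% in DMSO libraries. Its level is uncertain as far as reads were split wrongly between them.

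Promoters were read for shared letters because so many hnRNP genes fell together. Of the 36 tested genes 34 had an entry among RefSeq's promoter windows of GRCh38.p14, 250 bases before to 50 after the gene start. The E-box CACGTG, the core letters bound by MYC with MAX and by related factors and the same on both strands, was in 9 of 34 windows (26.5%), against 7.43% of 27305 windows and 9.98% of those of 10235 tested genes. It was in 8 of the 25 that fell without DMSO 3 and in 1 of the other 9. The matching shares among all genes that fell or did not were not taken, so nothing is read from this split. The ETS letters CCGGAAGT, on either strand, were in 3 of 34 (8.82%, against 4.44% and 8.64%), and the CRE letters TGACGTCA in 0 of 34 (against 1.98% and 3.17%). A match describes these letters only, and whether any factor binds there was not tested. The E-box windows were those of CLK2, CLK4, HNRNPA3, HNRNPD, HNRNPDL, HNRNPH2, HNRNPH3, HNRNPM and HNRNPUL1. Those of HNRNPH2 (chrX:101407972-101408271, plus strand), the one with 2 matches, HNRNPM (chr19:8444725-8445024, plus strand) and HNRNPA3 (chr2:177212544-177212843, plus strand) are shown as examples from genes that fell, with the E-box in capitals. The matches start at −42 and −9 from the gene start in HNRNPH2, at −42 in HNRNPM and at −71 in HNRNPA3.
HNRNPH2: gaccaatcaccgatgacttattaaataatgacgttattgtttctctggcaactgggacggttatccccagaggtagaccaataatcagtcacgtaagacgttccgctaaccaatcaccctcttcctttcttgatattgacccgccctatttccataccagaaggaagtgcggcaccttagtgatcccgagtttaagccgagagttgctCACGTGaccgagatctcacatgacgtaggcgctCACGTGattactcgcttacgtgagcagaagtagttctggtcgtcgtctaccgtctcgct
HNRNPM: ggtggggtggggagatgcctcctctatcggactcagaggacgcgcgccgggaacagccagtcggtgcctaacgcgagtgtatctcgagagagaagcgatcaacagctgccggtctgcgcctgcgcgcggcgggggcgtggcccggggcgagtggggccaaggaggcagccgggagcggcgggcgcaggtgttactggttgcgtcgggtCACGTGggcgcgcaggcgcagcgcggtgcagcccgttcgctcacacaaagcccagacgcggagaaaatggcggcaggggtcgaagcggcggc
HNRNPA3: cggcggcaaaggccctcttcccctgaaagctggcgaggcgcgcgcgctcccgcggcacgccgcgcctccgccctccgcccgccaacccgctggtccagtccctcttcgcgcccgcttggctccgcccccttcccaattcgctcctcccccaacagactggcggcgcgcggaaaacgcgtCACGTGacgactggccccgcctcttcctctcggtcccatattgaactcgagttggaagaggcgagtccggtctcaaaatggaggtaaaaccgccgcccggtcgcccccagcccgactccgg

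Some of these genes are tied to miRNAs. MIR7-1 (chr9:83969748-83969857, GRCh38.p14) lies inside HNRNPK and MIR636 (chr17:76736450-76736548) inside SRSF2, SRSF1 is known to promote the maturation of miR-7, and HNRNPA1 that of miR-18a from the miR-17-92 transcript. The mature sequences below, from RefSeq, carry the seed (bases 2 to 8) in capitals. The arms of miR-7 are shown because they come from the HNRNPK locus, and the others because they share the miR-18a transcript.
miR-7-5p: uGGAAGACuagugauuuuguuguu
miR-7-1-3p: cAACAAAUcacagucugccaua
miR-18a-5p: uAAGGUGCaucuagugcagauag
miR-17-5p: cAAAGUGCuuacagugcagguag
miR-20a-5p: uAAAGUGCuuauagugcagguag
miR-19a-3p: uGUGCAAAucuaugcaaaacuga
miR-19b-3p: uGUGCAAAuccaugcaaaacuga

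miR-7-5p fell with CAPE. It had 10783, 9828 and 8997 CPM in CAPE and 18727, 15695 and 16461 CPM in DMSO libraries, or 9869 ± 894 CPM and 16961 ± 1577 CPM (SD, n = 3 each). No CAPE library came near a DMSO library, and the DMSO 3 miRNA library lay between the other 2 of its group. The log2 fold change was −0.78 (edgeR SE 0.12, adjusted p = 0.00145 over 527 miRNAs), a fold of 0.582, and 4.36% of all miRNAs were called lower and 7.4% higher. The arm on the other side of the MIR7-1 hairpin, miR-7-1-3p, had 47.9, 54.8 and 60.0 CPM in CAPE and 42.4, 41.0 and 40.9 CPM in DMSO libraries. Its groups did not overlap either, with CAPE higher, but its fold change of 0.39 on the log2 scale (edgeR SE 0.15, adjusted p = 0.122) did not pass. The share of all miRNAs whose groups did not overlap was not taken. The counts of miR-7-5p for each count of miR-7-1-3p were 225, 179 and 150 in CAPE and 442, 383 and 402 in DMSO libraries, the smallest two-sided exact permutation p that 3 against 3 can give, 0.1.

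The 5p sequence is the same at MIR7-3 on chromosome 19 and its counts stood under 3 repeated entries, so they cannot be assigned to HNRNPK's locus alone, whereas miR-7-1-3p is named for that locus. The third locus's arm, miR-7-2-3p, with the same seed as miR-7-1-3p, had 0 counts in every library. HNRNPK mRNA had a log2 fold change of −0.22 without DMSO 3, as given above, and whether it or SRSF1 had a part in the miR-7 values was not tested. miR-636 had only 1.75 ± 0.533 CPM in CAPE and 1.91 ± 0.742 CPM in DMSO libraries (log2 fold change −0.17, edgeR adjusted p = 0.848), so a change was not detectable at this depth.

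Of the miRNAs sharing a transcript with miR-18a, miR-19a-3p fell and the others did not pass. miR-19a-3p averaged 259 ± 8.85 CPM in CAPE and 407 ± 25.1 CPM in DMSO libraries (SD, n = 3 each), or −0.65 as log2 fold change (edgeR SE 0.12, adjusted p = 0.00454). Its relative with the same seed, miR-19b-3p, was at −0.28 (edgeR adjusted p = 0.215). miR-18a-5p, the arm HNRNPA1 is known for, averaged 86.9 ± 4.63 CPM in CAPE and 106 ± 11.6 CPM in DMSO libraries (−0.29, edgeR adjusted p = 0.249), and miR-18a-3p was at −0.27. miR-17-5p and miR-20a-5p, which share a seed, were at −0.11 and −0.02, and miR-92a-3p at −0.09. miR-19b-3p and miR-92a-3p also have a locus on chromosome X and stood under 2 entries each, so their counts cannot be assigned to the miR-18a transcript alone.

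**Figure D4:**
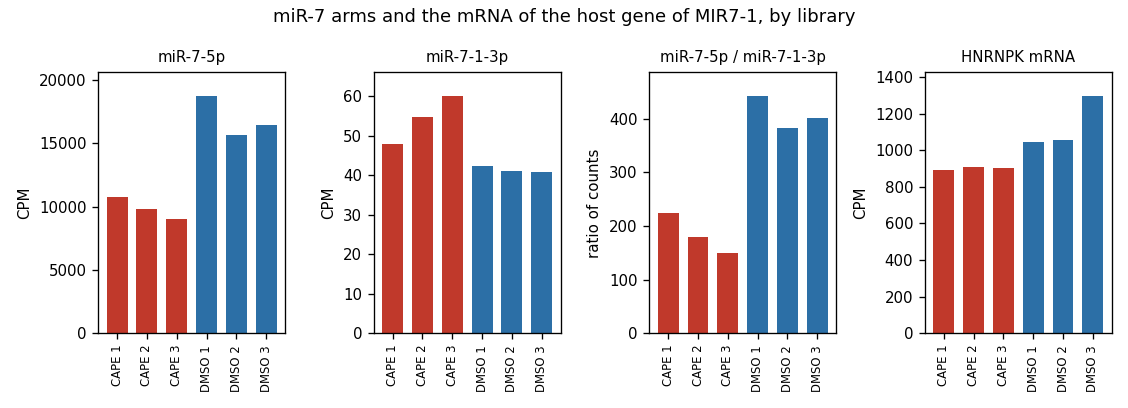
Levels of miR-7-5p and miR-7-1-3p (CPM), the ratio of their counts and HNRNPK mRNA (CPM), 1 bar per library, CAPE in red left of DMSO in blue. The miR-7-5p bars stand at 8997 to 10783 CPM in CAPE and 15695 to 18727 CPM in DMSO libraries, and the ratio at 150 to 225 in CAPE and 383 to 442 in DMSO libraries.

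The rest of the splicing machinery was read through 7 lists of 190 genes. Without DMSO 3, 99 of 179 tested fell and 10 rose, with a median of −0.17. With 6 libraries 0 fell and 1 rose of 178, beside 0.456% and 1.49% of all genes. At an unadjusted p under 0.05, 16 were lower and 4 higher, beside 6.52% and 9.54% of all genes. On those 6 libraries DESeq2 called 2 lower (1.51% of all genes) and limma voom with quality weights 81 lower (19.7%). Without DMSO 3 the length offset gave 50 lower and 7 higher list genes, beside 1611 and 1739 of all 13841 genes. There limma on TPM gave 48 lower and 8 higher, beside 1391 and 1655 of all 13919 genes. The counts below are those without DMSO 3, where 20.8% of all genes fell and 20.4% rose, and every gene named by its value had an edgeR adjusted p between 8.24e-09 and 0.0343 there.

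Among SR-related and Tra2 proteins 18 of 29 fell and 1 rose (median −0.18). ACIN1, a partner of the exon junction complex, was at −0.39 and RSRP1, an arginine and serine rich protein, at −0.65 (−0.24 with 6 libraries), and SREK1 was the one that rose (0.18). Among the other kinases and phosphatases of SR proteins 7 of 18 fell and 1 rose (median −0.11), with PRPF4B, a kinase bound to the tri-snRNP, at −0.54 (−0.16 with 6 libraries), PPP1CC, a catalytic subunit of PP1, at −0.36, and the kinase SRPK3 at 0.59. SRPK3 had 3.75, 3.94 and 4.55 CPM in CAPE and 2.58, 2.82 and 0 CPM in DMSO libraries, so its value rests on few counts.

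Of the U1, U2 and U2AF proteins 17 of 23 fell and none rose (median −0.23), with SF3B3 at −0.40 and PUF60 at −0.50. Of the Sm and LSm ring proteins 9 of 16 fell and 1 rose (median −0.20), with SNRPD1 at −0.34, SNRPE at −0.28 and LSM8 at 0.24. Of the tri-snRNP and catalytic proteins 22 of 33 fell and 2 rose (median −0.20). The U5 helicase DDX23 was at −0.47 and PRPF6, which bridges the tri-snRNP, at −0.45, against PLRG1, of the PRP19 complex, at 0.34 and BUD31 at 0.19, which turned to −0.45 with 6 libraries.

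Of 44 other regulators of alternative splicing tested 19 fell and 2 rose (median −0.12). TARDBP, the gene of TDP-43, had 217, 215 and 215 CPM in CAPE and 336, 331 and 269 CPM in DMSO libraries, a log2 fold change of −0.63, and SYNCRIP, also called hnRNP Q, was at −0.48. MBNL2, a muscleblind protein, was at 0.59. CELF2, a regulator of exon choice and mRNA stability, had 20.03, 17.2 and 18.0 CPM in CAPE and 7.12, 5.54 and 3.56 CPM in DMSO libraries. All CAPE libraries of CELF2 lay far above all DMSO libraries, by 1.54 (SE 0.13) without DMSO 3 and 1.76 with 6 libraries (edgeR adjusted p = 0.0402), the one list gene to pass there. Its call was lost with upper-quartile factors, the replicate block, the length offset and on TPM. The call was also lost when any 1 library other than DMSO 3 was left out. Of the nonsense-mediated decay and exon junction factors 7 of 16 fell and 3 rose (median −0.09), with the helicase UPF1 at −0.34, UPF2 at −0.28, which turned to 0.05 with 6 libraries, the endonuclease SMG6 at 0.41 and SMG5 at 0.22.

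**Figure D5:**
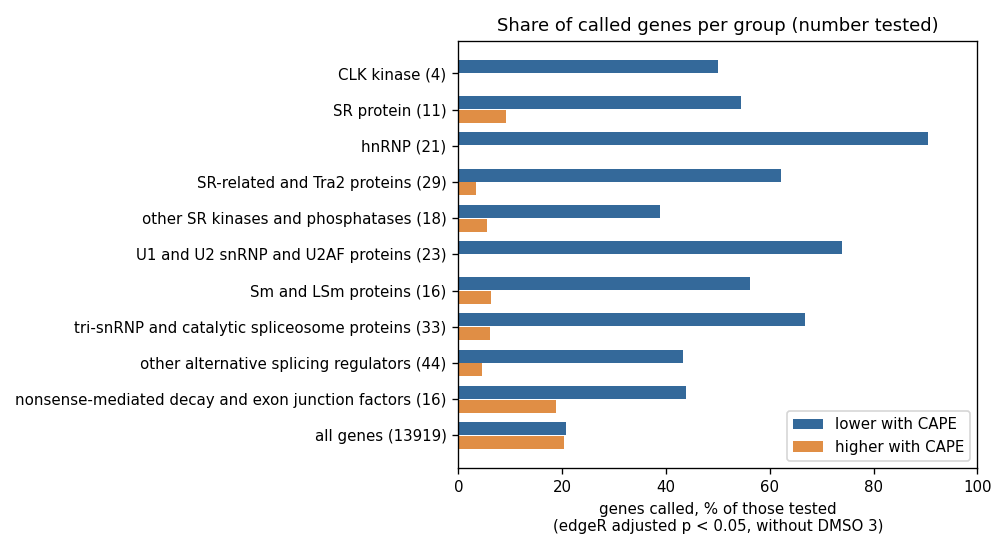
Share of tested genes that fell (blue) or rose (orange) with CAPE without DMSO 3 in each family and list, in percent of the number tested given in brackets, with all genes at the bottom. The hnRNPs have the longest lower bar, 90.5%, and the U1, U2 and U2AF proteins 73.9%, against 20.8% of all genes.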

How the data were processed

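mRNA and miRNA libraries of 3 CAPE and 3 DMSO samples each were fitted separately. The deposited mRNA values were estimated counts and TPM per gene symbol, for which the submitters' processing notes name bcl2fastq, kallisto 0.46.1 and GRCh38. How the authors summed transcripts to genes is not given in the sources used here. The counts were deposited as whole numbers, rounded before deposit, since 32 to 65 genes per library had a count of 0 beside a TPM above 0. The deposited miRNA values were raw counts per mature miRNA, with an aligner that is not given in the sources used here. Where a name was repeated (232 entries), the entry with the most counts was used.

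Counts were filtered with filterByExpr, scaled by TMM and tested with edgeR 4.0.16 (R 4.3.3, quasi-likelihood F test, adjustment by Benjamini-Hochberg over every feature tested, threshold 0.05, prior count 2 for log2 CPM). The SE is the size of the log2 fold change over the root of F. The log2 ratio of count to TPM, centred on each library's median, and log2(TPM + 1) were tested with limma 3.58.1. DESeq2 1.42.0 was an alternative, and single values had exact permutation tests in scipy 1.17.1. Methods were tested on simulated data. No libraries were duplicates. Depth ranges stand in the text, and counts carry no molecular identifiers.

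The genes, lists and tests were chosen with earlier results of these data known. Values per library are given for genes past 0.5 in size and an adjusted p under 0.05 without DMSO 3, and for CLK1 to CLK4, SRSF1, SRSF2, SRSF3, HNRNPA1, HNRNPA2B1 and HNRNPK; of each list, the 2 smallest p values per direction without DMSO 3; and, for the ratio, the 4 smallest. SRSF6, SRPK3, TARDBP and CELF2 were given per library after their values were seen. Alternatives changed the scaling, filter, tool or length correction, used TPM or a replicate block, or left out each library.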

Additional observations from a re-analysis of the deposited data

How the results depend on the processing

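DMSO 3 decided the mRNA calls. Leaving out 1 library gave 0 to 27 lower and 0 to 1 higher among the 36 splicing genes, 0 to 2895 and 0 to 2836 among all genes, and 0 to 99 and 0 to 10 among the list genes, with each highest count in the fit without DMSO 3. With all 6 libraries 62 genes were lower and 203 higher. With 6 libraries, DESeq2 gave 4 lower splicing genes (SRSF1, SRSF2, HNRNPF and HNRNPU), 327 and 529 among all genes and 2 lower list genes. Voom with quality weights gave 25 lower splicing genes, 2677 and 2915 among all genes, and 81 and 8 list genes. Loess on length gave 1 splicing gene (SRSF2) and 132 lower genes. Upper-quartile factors left 0 list genes higher and a median of −0.17 over the splicing genes (all genes 0.08). That median was −0.27 with TMM and −0.36 to −0.23 when 1 library was left out, −0.36 without DMSO 2.

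Deviations of same-numbered CAPE and DMSO libraries from their group means had correlations of −0.19, 0.14 and −0.01 for mRNA and 0.11, 0.01 and 0.12 for miRNA. For mRNA these could not show pairing, since the outlying DMSO 3 fixed the deviations of DMSO 1 and 2. CAPE 1 thus had −0.19, −0.18 and 0.20 against DMSO 1 to 3. The other miRNA pairs had −0.15 to 0.09. The labels do not name pairs, so the numbers were not taken as pairs. The replicate block called 0 genes either way with 6 libraries. Without DMSO 3, the replicate block gave 27 lower and 0 higher splicing genes, 2556 and 2469 among all genes, and 92 and 9 list genes.

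Without DMSO 3, DESeq2 gave 27, 2408 and 2097, and 92 and 6 in the same order, and RLE factors 27 and 1, 2881 and 2852, and 99 and 10. Chosen after the data were seen, the length offset with 6 libraries gave 35 and 109 genes and 0 list genes higher, and without DMSO 3 it gave 20 splicing genes, 1611 and 1739 genes, and 50 and 7 list genes. limma on TPM with 6 libraries gave 23 and 112 genes, 0 list genes higher and a splicing median of 0.12 (all genes 0.31), and without DMSO 3 19 splicing genes, 1391 and 1655 genes, and 48 and 8 list genes.

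CLK4, HNRNPH1 and SRSF5, called without DMSO 3, reversed there to below 0 (6 genes that passed in neither fit, CLK2, CLK3, SRSF9, SRSF10, SRSF11 and HNRNPA1L2, also changed sign), against highest values of 0.29, 0.32 and 0.33, all without DMSO 1, when another library was left out. CLK4 was −0.35 with voom weights and, without DMSO 3, −0.36 with TMM, −0.33 with the block, −0.37 with DESeq2 and −0.36 with RLE. HNRNPH1 was −0.17, −0.19, −0.17 and −0.17, and SRSF5 −0.17, −0.18, −0.17 and −0.17 in those 4 fits. The cause was not tested. miR-7-5p stayed between −0.87 and −0.72 and passed in every alternative. Precision is limited by 3 libraries a group, by SRSF12's 2 to 4 counts and by miR-636's 7 to 25 counts.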
